A study of Mus musculus with 60 samples.

Results

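Mouse ear fibroblasts that had taken TNF-α for 3 h at 37 °C were compared directly with the same cells after 3 h of IL-1β at that temperature. The members are the 3 libraries labelled TNF and the 3 labelled IL-1β at 37 °C and 3 h, which makes 6 of the 60 libraries in the series. The study, on temperature and NF-κB signalling, collected cells at 24, 34, 37 and 40 °C, unstimulated or after 1 or 3 h of either cytokine, with 3 biological replicates per group that the labels call independent. The cells are an immortalised line from ears of adult mice named DKI in the labels. They carry fluorescent reporters on endogenous RelA and c-Rel, had been through 20 to 25 passages, and are labelled as Immortalized Ear Fibroblast GR NLS-iRFP-NLS. The labels do not say whether the line is 1 clone.

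Both cytokines were recombinant murine proteins used at 10 ng/mL after 2 h of adaptation, so both 3 h groups had spent 5 h at 37 °C since the transfer. Their comparison is therefore matched in hours. Unstimulated cells at 37 °C had spent 2 h and the 1 h groups 3 h, so a change from unstimulated cells also spans a difference in hours, and no unstimulated group was kept as long as the stimulated ones.

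TNF and IL-1 are inflammatory cytokines that use unrelated receptors and converge on the same kinase complex, IKK. TNF acts through TNF receptor 1 and a complex built on TRADD, RIPK1, TRAF2 and the cIAP ubiquitin ligases, and IL-1β through IL-1 receptor 1 with its accessory protein, MYD88, IRAK kinases and TRAF6. IKK marks IκB proteins for destruction, which frees NF-κB dimers to enter the nucleus, and NF-κB in turn induces its own inhibitors, chemokines, adhesion molecules and cytokines. Both cytokines are known to make fibroblasts secrete chemokines that recruit leukocytes.

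Expression was deposited as FPKM, which is the number of fragments scaled to transcript length and to the mapped fragments of the library, for 10122 genes. Depth, estimated from the steps in which low values rise, was 5.75 to 7.39 M (mega) fragments in the 6 libraries and 3.53 to 7.72 M in all 60, so 1 FPKM in a transcript of 1 kb stands for about 6.38 fragments and values of a few FPKM are coarse. Pearson r across genes was 0.978 to 0.981 between replicates of a group and 0.973 to 0.976 between the groups; genes are not independent points. The 7 measured fibroblast markers out of 9 summed to 4742 to 5219 FPKM in TNF libraries and 5098 to 5449 in IL-1β libraries, with Col1a1, Col1a2 and Vim the highest. Macrophage markers were low, with 2 of 8 measured (Cd68 and Lyz2, summing to 3.02 to 6.16 FPKM with TNF and 2.17 to 4.37 with IL-1β), and so were 1 of 6 endothelial (0.12 to 0.96 and 0.20 to 2.50), 1 of 6 keratinocyte (0 to 1.50 and 0.45 to 1.25), 2 of 5 melanocyte (3.23 to 5.09 and 3.06 to 4.34) and 2 of 5 muscle genes (2.65 to 5.11 and 2.92 to 4.72). None of these differed between the cytokines by the test below. Of 3 chondrocyte markers measured out of 6 (15.3 to 21.2 and 12.2 to 15.6 FPKM), Sox9 was higher with TNF (log2 difference 0.57, adjusted p = 0.016; not called without TNF replicate 1 at 0.47, IL-1β replicate 2 at 0.51 or IL-1β replicate 3 at 0.53, nor in a fit of the 6 libraries alone), and of the fibroblast markers Pdgfrb was lower. These are bulk RNA values, in which fewer cells of a kind and less RNA per cell cannot be told apart.

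After 3 h, TNF cells held far more mRNA of the T cell and monocyte chemokines Ccl5, Cxcl10 and Ccl2, of the adhesion molecules Icam1 and Vcam1, of the NF-κB inhibitors Tnfaip3 and Nfkbia, and of the interferon-linked genes Irf1 and Gbp2. IL-1β cells held more of the neutrophil chemokines Cxcl5 and Cxcl1, of the RNase gene Zc3h12a, of the transcription factor Cebpd and of the acute-phase gene Lcn2. The neutrophil chemokines Cxcl2 and Cxcl3 and the acute-phase genes Cfb and Ptx3 went the other way and were higher with TNF. Other genes higher in IL-1β cells, among them the transcriptional regulators Id2, Id3 and Atoh8, stood below the unstimulated level with TNF. All differences below are TNF minus IL-1β on the log2(FPKM + 1) scale, which understates the change of low genes, and each carries the standard error (SE) of a linear model of all 60 libraries fitted in limma. P-values were adjusted by Benjamini-Hochberg over all genes tested, and genes with an adjusted p under 0.05 are the ones called here.

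By that test 419 of 10122 genes (4.14%) differed, 259 higher with TNF (2.56%) and 160 higher with IL-1β (1.58%). At least a 2-fold difference was reached by 71 and 18 of them (0.879% of all genes for both together), and the median size over the 419 was 0.62. The 3 TNF and 3 IL-1β libraries did not overlap for 411 of the 419, where 17.5% of all genes show no overlap. The genes were called on these same libraries, so the separation follows largely from the call and is no further support for it. Of the called genes 13 are unnamed gene models. The median over all genes was -0.04, and the split of 61.8% higher with TNF became 70.8% (311 and 128 genes) after the libraries were rescaled. A fit of the 6 libraries alone, in which the spread rests on far fewer degrees of freedom, called 142 genes, 105 higher and 37 lower with TNF, and 129 of these were among the 419. The SE there comes from these libraries and differs from the one printed with each gene. It was larger for Gbp2 (0.53 against 0.28) and Gbp5 (0.41 against 0.20), for example, and smaller for Bcl3 (0.09 against 0.21). Where a gene named below was not called in that fit, this is stated with its group. Calls lost when a replicate block was added to those 6 libraries are given near the end. Against unstimulated cells, whose 3 libraries serve both comparisons, TNF changed 1418 genes (14.0%), 663 up (6.55%) and 755 down (7.46%), and IL-1β changed 440 (4.35%), 245 up (2.42%) and 195 down (1.93%). After rescaling TNF gave 770 up and 635 down, so which direction holds more genes turns with the scaling, and IL-1β gave 239 and 188. Without unstimulated replicate 3 the 195 became 120.

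**Figure D1:**
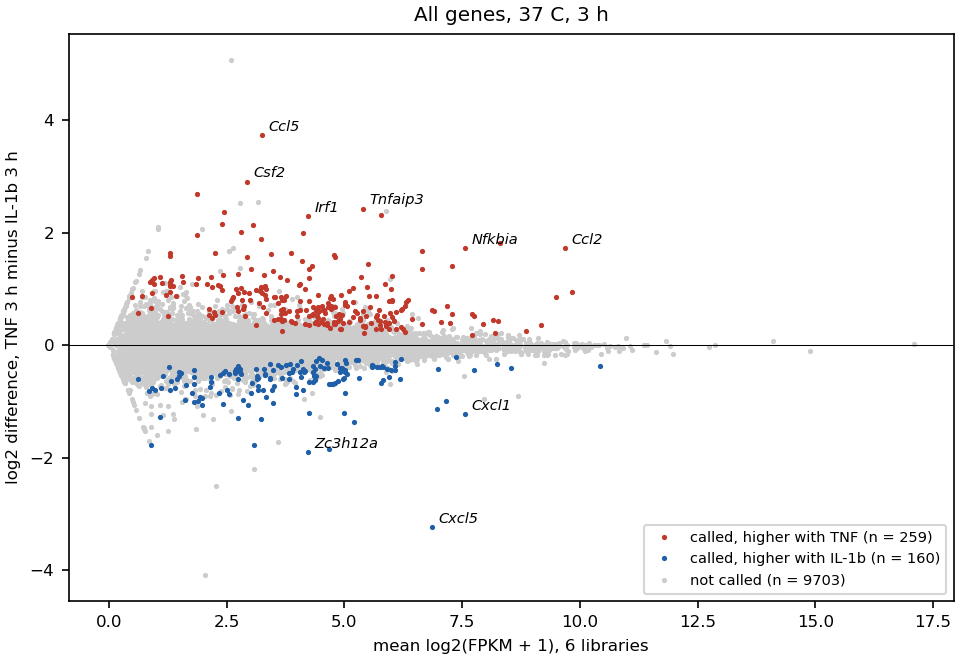
Difference in log2(FPKM + 1) between TNF and IL-1β at 3 h and 37 °C (vertical axis) against the mean level over the 6 libraries (horizontal axis), 1 point per gene. Red points are the 259 genes called higher with TNF, blue points the 160 called higher with IL-1β and grey points genes not called. The largest called differences are Ccl5 at 3.73 and Cxcl5 at -3.24.

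The chemokine Ccl5, which draws T cells and monocytes and is listed under ENSMUSG00000035042.2, stood at 45.4, 29.6 and 28.7 FPKM in TNF cells and 3.49, 0.97 and 1.04 FPKM in IL-1β cells (log2 difference 3.73, SE 0.37, adjusted p = 2e-10). Unstimulated cells had 0.56, 0.90 and 0 FPKM, and the IL-1β change from that level was not called (log2 change 0.87, adjusted p = 0.23), while TNF raised it (log2 change 4.60, adjusted p = 7.7e-14). Csf2, the growth factor GM-CSF, stood at 17.0, 21.0 and 22.3 FPKM with TNF and 1.64, 1.57 and 2.25 FPKM with IL-1β (2.91, SE 0.23, adjusted p = 2.6e-13), and was listed at 0 in the 3 unstimulated libraries. Cxcl10, a chemokine for activated T cells, had 8.20, 9.53 and 7.23 FPKM with TNF and 0.84, 0.17 and 0.37 FPKM with IL-1β (2.69, SE 0.22, adjusted p = 3.1e-13), and was likewise listed at 0 in unstimulated cells. The small GTPase gene Gem had 12.8, 11.3 and 9.89 FPKM with TNF and 1.98, 0.94 and 1.37 FPKM with IL-1β (2.36, SE 0.19, adjusted p = 1.8e-13). The IL-1β libraries of Csf2 and Cxcl10 stood above the unstimulated level of 0 but below 3 FPKM. The membrane fusion gene Stx11 (1.99, SE 0.23, adjusted p = 7.7e-09) and the sugar transporter gene Slc2a6 (1.95, SE 0.22, adjusted p = 7.7e-09) complete the 12 largest differences on this side, among called genes whose replicates do not overlap, with Tnfaip3, Icam1, Irf1, Traf1, Gbp2 and Cxcl2.

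On the other side stood Cxcl5, a neutrophil chemokine listed under ENSMUSG00000029371.7, with 40.8, 38.9 and 30.9 FPKM in TNF cells against 422, 352 and 300.2 FPKM in IL-1β cells (log2 difference -3.24, SE 0.23, adjusted p = 7e-15). Unstimulated cells had 5.54, 5.29 and 4.13 FPKM, so both cytokines raised it, TNF by 2.66 and IL-1β by 5.90 on the log2 scale. Zc3h12a, which encodes Regnase-1, an RNase that degrades inflammatory mRNAs, had 8.79, 8.70 and 8.40 FPKM with TNF and 37.2, 31.3 and 37.1 FPKM with IL-1β (-1.91, SE 0.13, adjusted p = 1.1e-15). Cebpd, Lcn2, Atoh8, Adra1d, Serpina3f, Cxcl1, Id2 and Id3, also among the 12 largest chosen in the same way, are given with their groups below. Ptch1, the Hedgehog receptor, had 13.4, 9.42 and 12.1 FPKM with TNF and 27.0, 26.6 and 30.7 FPKM with IL-1β (-1.21, SE 0.18, adjusted p = 3.2e-06), and only the IL-1β value was called against unstimulated cells (1.37, adjusted p = 3.1e-07, against 0.15, adjusted p = 0.67, for TNF). Rpusd3, a mitochondrial pseudouridine synthase gene, had 3.63, 3.85 and 2.50 FPKM with TNF and 9.46, 12.2 and 7.46 FPKM with IL-1β (-1.30, SE 0.32, adjusted p = 0.0081). Its call was lost without TNF replicate 3 (-1.15, adjusted p = 0.064) or IL-1β replicate 2 (-1.13, adjusted p = 0.076), and in the fit of the 6 libraries.

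**Figure D2:**
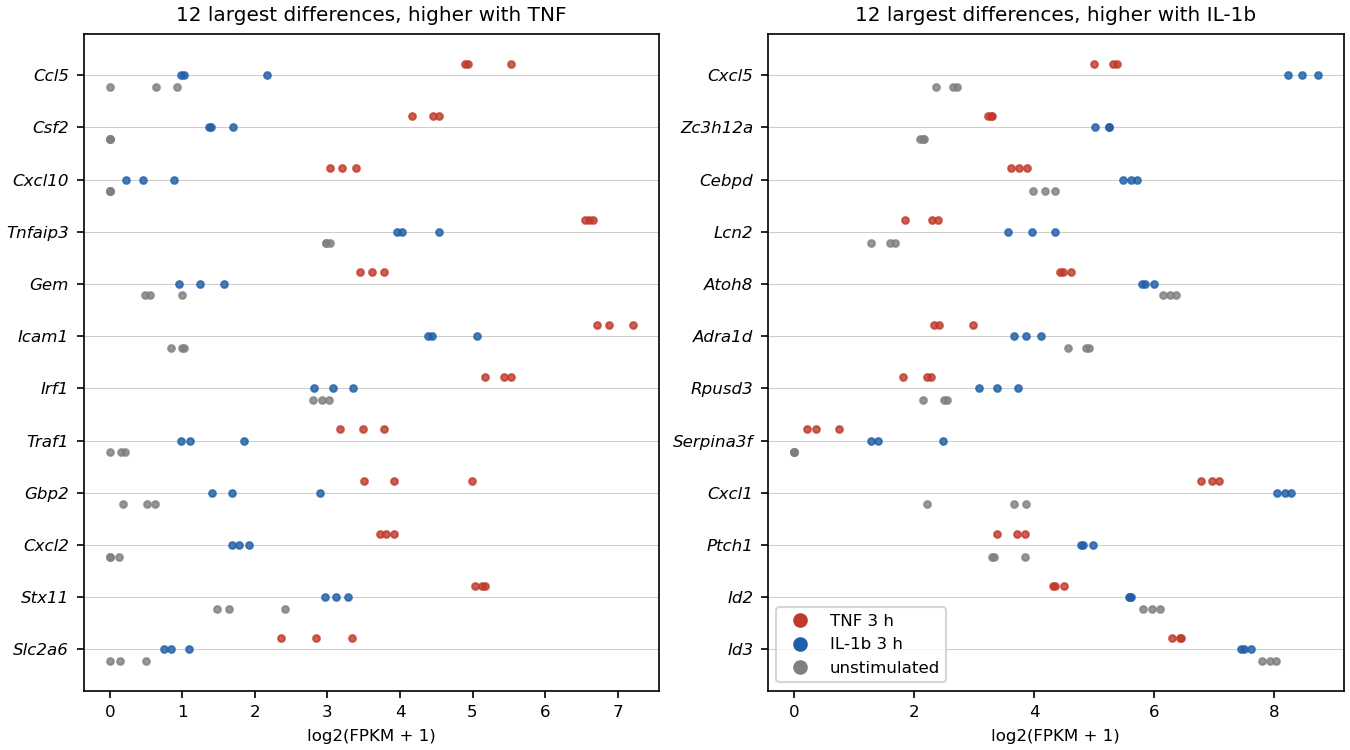
Level of the 12 genes with the largest difference in each direction, as log2(FPKM + 1) on the horizontal axis, 1 point per library: red TNF 3 h, blue IL-1β 3 h, grey unstimulated, 3 libraries each, all at 37 °C. The 24 genes were chosen among those whose TNF and IL-1β libraries do not overlap; for Atoh8, Adra1d, Id2 and Id3 the unstimulated points lie above both.

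Promoters are shown for 4 of these genes because they carry the same kind of word on both sides of the comparison. Of the 12 leading genes higher with TNF, 10 are in the RefSeq promoter table (GRCm38.p6), all but Ccl5 and Gem. So are 9 of the 12 higher with IL-1β, all but Cxcl5, Cebpd and Adra1d. Tnfaip3, Irf1, Rpusd3 and Serpina3f have 2 entries each, of which the first was used. In the 250 bases before the start, on either strand, the κB-type word GGANNTTCC was found in 4 of the 10 (Cxcl10, Tnfaip3, Icam1 and Cxcl2) and in 1 of the 9 (Cxcl1), and in 3.59% of the 32851 promoters in the table. A C/EBP-type word, TTGCNNAA, was in 1 of the 10 (Csf2) and 2 of the 9 (Lcn2 and Serpina3f), with 9.56% of all promoters. An interferon-stimulated response element (ISRE) type word of 10 letters was in 2 of the 10 (Cxcl10 and Gbp2) and 0 of the 9, with 2.98% of all promoters. A match is a run of letters and not a measured binding site. Capitals mark the κB-type word, which reads GGAAATTCC for Cxcl10 and Icam1 and GGAATTTCC for Cxcl2 and Cxcl1, all given 5′ to 3′ on the strand of the gene. The coordinates are chr5:92348890-92349139 on the minus strand for Cxcl10, chr9:21015690-21015939 on the plus strand for Icam1, chr5:90903649-90903898 on the plus strand for Cxcl2 and chr5:90890995-90891244 on the plus strand for Cxcl1.
Cxcl10: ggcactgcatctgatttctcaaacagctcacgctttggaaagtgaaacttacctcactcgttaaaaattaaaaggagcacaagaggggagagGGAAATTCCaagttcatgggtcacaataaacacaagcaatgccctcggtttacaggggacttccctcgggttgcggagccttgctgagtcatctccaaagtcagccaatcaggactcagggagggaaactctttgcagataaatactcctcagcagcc
Icam1: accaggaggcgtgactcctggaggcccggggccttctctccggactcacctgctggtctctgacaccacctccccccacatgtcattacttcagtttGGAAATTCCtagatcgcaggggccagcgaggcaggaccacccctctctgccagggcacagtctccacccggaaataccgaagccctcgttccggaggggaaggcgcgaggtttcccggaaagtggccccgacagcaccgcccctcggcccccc
Cxcl2: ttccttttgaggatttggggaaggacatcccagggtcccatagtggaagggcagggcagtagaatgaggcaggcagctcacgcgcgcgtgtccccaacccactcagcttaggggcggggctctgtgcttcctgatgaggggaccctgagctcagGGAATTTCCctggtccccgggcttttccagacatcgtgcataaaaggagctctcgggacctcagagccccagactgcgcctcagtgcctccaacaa
Cxcl1: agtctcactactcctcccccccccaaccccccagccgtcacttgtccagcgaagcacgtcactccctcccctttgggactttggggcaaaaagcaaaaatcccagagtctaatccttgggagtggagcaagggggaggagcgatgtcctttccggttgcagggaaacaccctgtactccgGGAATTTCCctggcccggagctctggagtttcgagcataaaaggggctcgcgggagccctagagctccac
Cxcl2 and Cxcl1 are chemokine genes that lie close together on chromosome 5 and whose promoters hold the identical 9-letter word, and they fell on opposite sides of the comparison.

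Neither cytokine's own receptor gene differed by the test. Tnfrsf1a, TNF receptor 1, had 147, 127 and 123 FPKM with TNF and 164, 151 and 145 FPKM with IL-1β (-0.21, SE 0.08, adjusted p = 0.18), and Il1r1, the signalling receptor for IL-1, had 38.9, 40.4 and 35.4 FPKM with TNF and 44.6, 40.3 and 34.5 FPKM with IL-1β (-0.05, SE 0.13, adjusted p = 0.95). The libraries of the groups overlapped for both. Over all genes 2.56% were higher with TNF and 1.58% with IL-1β, shares to hold beside each list count below. The lists were written with earlier results of these data known, so a count above these shares is partly set by that choice. It is no test of a list. Of 13 measured genes of TNF receptor signalling, 4 were higher with TNF, 0 higher with IL-1β, and the median was 0.11. These were Traf1, an adaptor that TNF itself induces (12.7, 10.2 and 8.02 FPKM with TNF, 1.16, 2.61 and 0.98 FPKM with IL-1β; 2.16, SE 0.28, adjusted p = 1.5e-07), the cIAP genes Birc3 (1.50, SE 0.29, adjusted p = 0.00042) and Birc2 (0.68, SE 0.19, adjusted p = 0.024), and Cflar, which blocks caspase-8 (0.43, SE 0.08, adjusted p = 0.0005). The caspase gene Casp8 stood at -0.09, the kinase gene Ripk1 at -0.17, and Tnfrsf1b, Tradd, Traf2, Traf5, Fadd and Rbck1 at -0.04 to 0.24, none called. Birc2 was not called without TNF replicate 1 (0.66), TNF replicate 2 (0.65) or IL-1β replicate 3 (0.53), and Birc2 and Cflar not in the fit of the 6 libraries.

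Among 13 measured genes of IL-1 receptor signalling 1 was called, and it was higher with TNF. Il1rl1, the receptor for IL-33, had 92.8, 68.4 and 61.4 FPKM in TNF cells and 30.0, 25.0 and 24.3 FPKM in IL-1β cells (1.44, SE 0.16, adjusted p = 2.4e-09), with no overlap. The adaptor gene Myd88 (0.33), the IL-1 receptor antagonist gene Il1rn (0.70, SE 0.54) and the kinase genes Irak1, Irak2, Irak3 and Irak4 (-0.27 to 0.00) were not called, and the list median was 0.11. Traf6, which IL-1 receptors need, stood at 0.17, and Il1rap, Tollip, Map3k7 and Tab2 at -0.03 to 0.15. In the noncanonical arm 1 of 4 measured genes was called, Map3k14, the kinase NIK that starts it (10.3, 10.1 and 8.32 FPKM with TNF, 7.14, 3.88 and 4.58 FPKM with IL-1β; 0.80, SE 0.14, adjusted p = 8.9e-05), which was lost in the fit of the 6 libraries.

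The NF-κB subunit list holds 3 of the subunit genes and not the whole family. All 3 were measured and were higher with TNF, with a list median of 0.63. Relb, a subunit of the noncanonical dimer, had 68.8, 59.8 and 56.7 FPKM in TNF cells and 25.8, 24.6 and 27.6 FPKM in IL-1β cells (1.21, SE 0.13, adjusted p = 4.1e-09), against 3.56, 5.20 and 5.47 FPKM in unstimulated cells. Nfkb1, which encodes p105 and p50, had 107, 84.6 and 80.7 FPKM with TNF and 64.3, 53.7 and 56.0 FPKM with IL-1β (0.63, SE 0.11, adjusted p = 4.5e-05). Rel, which encodes c-Rel, stood at 4.13, 3.98 and 5.01 FPKM with TNF and 2.87, 2.59 and 3.06 FPKM with IL-1β (0.48, SE 0.09, adjusted p = 0.0005), and at 2.49, 2.13 and 2.34 FPKM in unstimulated cells. The libraries did not overlap for any of the 3. Nfkb1 and Rel were not called in the fit of the 6 libraries (adjusted p = 0.11 and 0.19).

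Inhibitors of NF-κB and other feedback genes were measured for 10 members, of which 6 were higher with TNF and 1 with IL-1β, and the list median was 0.81. Tnfaip3, the ubiquitin editor A20 that shuts off IKK signalling, had 100.02, 96.0 and 92.9 FPKM with TNF, 22.2, 14.5 and 15.3 FPKM with IL-1β and 7.18, 6.89 and 6.91 FPKM without cytokine (log2 difference 2.43, SE 0.11, adjusted p = 3.3e-22). Nfkbia, which encodes IκBα, had 346, 338 and 346 FPKM with TNF, 107, 92.0 and 111 FPKM with IL-1β and 38.0, 29.1 and 25.3 FPKM without cytokine (1.73, SE 0.13, adjusted p = 1.7e-14). Both inhibitors thus stood above the unstimulated level with either cytokine, with the TNF libraries highest. Tnip1, a partner of A20, had 198, 147 and 138 FPKM with TNF and 80.8, 60.4 and 47.2 FPKM with IL-1β (1.36, SE 0.18, adjusted p = 1.8e-07). Zfp36, which encodes the mRNA-destabilising protein tristetraprolin, had 11.2, 11.9 and 10.5 FPKM with TNF and 5.80, 4.54 and 5.28 FPKM with IL-1β (0.98, SE 0.14, adjusted p = 7.8e-07). Set beside unstimulated cells at 13.9, 12.2 and 8.31 FPKM, it had fallen with IL-1β (log2 change -0.98, adjusted p = 8.3e-07), and the TNF change was not called (log2 change 0.00, adjusted p = 1). Nfkbib, which encodes IκBβ (0.96, SE 0.16, adjusted p = 2.3e-05), and the deubiquitinase gene Cyld (0.38, SE 0.11, adjusted p = 0.031) were the other higher ones. Zc3h12a was the single feedback gene higher with IL-1β. Bcl3 (0.67, adjusted p = 0.068), Tnip2 (0.01) and N4bp1 (-0.07) were not called, although Bcl3 passed in the fit of the 6 libraries, with the libraries rescaled (0.70) and with a replicate block. Cyld was called in none of the 6 fits that left out a library (0.33 to 0.41) nor, like Tnip1, in the fit of the 6 libraries.

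The 4 measured neutrophil-recruiting chemokines split evenly, with a median of 0.17. Cxcl1 had 124, 135 and 109 FPKM with TNF, 289, 264 and 310.0 FPKM with IL-1β and 11.8, 13.5 and 3.66 FPKM without cytokine (-1.23, SE 0.24, adjusted p = 0.00052), so that it and Cxcl5 were higher with IL-1β. Cxcl2 had 14.1, 12.2 and 13.0 FPKM with TNF and 2.79, 2.43 and 2.20 FPKM with IL-1β (2.02, SE 0.29, adjusted p = 2.3e-06), and Cxcl3 had 11.4, 12.3 and 12.9 FPKM with TNF and 3.42, 2.87 and 4.09 FPKM with IL-1β (1.57, SE 0.23, adjusted p = 2.9e-06). These 2 were higher with TNF, at levels far below Cxcl1 and Cxcl5 in FPKM. All 4 genes were separated without overlap between the cytokines.

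Of 12 other chemokine genes measured, 7 were higher with TNF and 1 with IL-1β, and the median was 1.02. Ccl2, the main monocyte chemokine, had 1437, 1497 and 1539 FPKM with TNF, 488, 379 and 484 FPKM with IL-1β and 33.2, 21.2 and 21.2 FPKM without cytokine (1.73, SE 0.17, adjusted p = 1.1e-10). Its relative Ccl7 had 1235, 1252 and 1299.8 FPKM with TNF and 698, 628 and 633 FPKM with IL-1β (0.95, SE 0.14, adjusted p = 2.2e-06). Ccl9 had 691, 580.5 and 507 FPKM with TNF and 219, 151 and 139 FPKM with IL-1β (1.82, SE 0.33, adjusted p = 0.00013). For these abundant chemokines both cytokines raised the mRNA above unstimulated cells and TNF raised it further. The membrane-bound chemokines Cxcl16 (20.8, 16.9 and 16.8 FPKM with TNF, 5.81, 5.94 and 4.05 FPKM with IL-1β; 1.62, SE 0.21, adjusted p = 1.8e-07) and Cx3cl1 (97.1, 69.1 and 86.4 FPKM with TNF, 43.6, 31.1 and 42.4 FPKM with IL-1β; 1.09, SE 0.15, adjusted p = 4.5e-07) went the same way. Cxcl12, which retains stem cells and lymphocytes in their niches, was the 1 on the other side, with 1407, 1079 and 1139.7 FPKM with TNF, 1802, 1464 and 1459.6 FPKM with IL-1β and 2045, 1562 and 1642 FPKM without cytokine (-0.38, SE 0.11, adjusted p = 0.034). It fell with TNF relative to unstimulated cells (log2 change -0.53, adjusted p = 0.00036) and its IL-1β change was not called (log2 change -0.15, adjusted p = 0.63). Ccl20 (0.90, adjusted p = 0.081), Ccl8 (0.29), Ccl17 (0.61) and Ccl25 (0.37) were not called. Cxcl12 lost its call after rescaling (-0.35, adjusted p = 0.073) and without TNF replicate 2 (-0.31), TNF replicate 3 (-0.35) or IL-1β replicate 1 (-0.28), Cxcl16 with a pseudocount of 0.1 (adjusted p = 0.055), and Cxcl12 and Cx3cl1 in the fit of the 6 libraries, while Ccl20 passed without TNF replicate 1 (1.11).

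Cytokine and colony-stimulating factor genes gave 3 of 10 higher with TNF and 1 higher with IL-1β, with a median of 0.50. Besides Csf2, these were Lif, a cytokine of the IL-6 family (21.1, 23.7 and 29.7 FPKM with TNF, 9.45, 6.21 and 6.42 FPKM with IL-1β; 1.63, SE 0.27, adjusted p = 2.8e-05), and the macrophage growth factor gene Csf1. Csf1 had 969, 916 and 1012 FPKM with TNF, 516, 498 and 586 FPKM with IL-1β and 499, 469 and 516 FPKM without cytokine (0.86, SE 0.09, adjusted p = 9.1e-10), so the IL-1β libraries lay near the unstimulated ones (log2 change 0.11, adjusted p = 0.69). Csf3, the neutrophil growth factor G-CSF, was higher with IL-1β, but at the bottom of the scale and with overlapping libraries (0.51, 0.44 and 0.14 FPKM with TNF, 2.39, 0.51 and 1.64 FPKM with IL-1β; -0.82, SE 0.21, adjusted p = 0.014). Without TNF replicate 3 (-0.69), IL-1β replicate 1 (-0.56) or IL-1β replicate 3 (-0.74), with a pseudocount of 0.1 or in the fit of the 6 libraries Csf3 was not called. Il6, a product of both pathways, had 26.0, 16.9 and 10.3 FPKM with TNF, 27.9, 26.6 and 21.4 FPKM with IL-1β and 6.89, 6.86 and 4.54 FPKM without cytokine. Its groups overlapped and the difference did not pass (-0.57, SE 0.25, adjusted p = 0.29).

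Adhesion and inflammatory effector genes stood higher with TNF in 6 of 11 cases and with IL-1β in 0, with a median of 0.56. Icam1, which binds leukocyte integrins, had 148, 117 and 104 FPKM with TNF, 32.4, 20.7 and 19.9 FPKM with IL-1β and 0.99, 0.79 and 1.04 FPKM without cytokine (log2 difference 2.31, SE 0.20, adjusted p = 7.4e-12). Vcam1, another integrin ligand, had 218, 165 and 161 FPKM with TNF, 67.0, 51.1 and 49.2 FPKM with IL-1β and 22.1, 20.6 and 19.7 FPKM without cytokine (1.68, SE 0.11, adjusted p = 1.1e-15). The IL-1β libraries lay between the unstimulated and the TNF libraries for both. Tnfaip2 (283, 246 and 224 FPKM with TNF, 98.9, 85.1 and 100.02 FPKM with IL-1β; 1.40, SE 0.10, adjusted p = 4.8e-14) and Ptges, which makes prostaglandin E2 (25.2, 26.1 and 21.4 FPKM with TNF, 12.8, 9.89 and 12.6 FPKM with IL-1β; 0.99, SE 0.20, adjusted p = 0.00085), were also higher with TNF. So were Plaur, the urokinase receptor (0.59), and Cd44, the hyaluronan receptor (0.56). The cyclooxygenase gene Ptgs2 was not called (-0.15, adjusted p = 0.82).

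Of 19 interferon-stimulated genes measured, 5 were higher with TNF and 0 with IL-1β, and the median was 0.42. Irf1, a transcription factor that both NF-κB and interferon induce, had 45.4, 42.4 and 35.0 FPKM with TNF, 9.25, 7.46 and 6.05 FPKM with IL-1β and 6.60, 6.00 and 7.10 FPKM without cytokine (log2 difference 2.30, SE 0.18, adjusted p = 1.6e-13). The IL-1β change from unstimulated cells was not called at 3 h (log2 change 0.17, adjusted p = 0.77). The guanylate-binding protein gene Gbp2 had 30.8, 14.1 and 10.4 FPKM with TNF and 6.46, 1.66 and 2.20 FPKM with IL-1β (2.14, SE 0.28, adjusted p = 3e-07), replicate 1 being the highest in each group. Gbp3 (1.21, SE 0.26, adjusted p = 0.0013), Gbp5 (1.15, SE 0.20, adjusted p = 5.5e-05) and the ADP-ribosyltransferase gene Parp14 (1.15, SE 0.16, adjusted p = 7.5e-07) were the others. Stat2 (0.04), Ifit2 (-0.03) and Bst2 (0.04) were among the members not called. Guanylate-binding protein genes have close relatives, between which the counting may divide reads, so their levels are uncertain. Gbp2, Gbp3, Gbp5 and Parp14 were not called in the fit of the 6 libraries (adjusted p = 0.17, 0.11, 0.33 and 0.11), nor Gbp3 with a pseudocount of 0.1.

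MHC class I antigen presentation gave 5 of 11 measured genes higher with TNF and 0 with IL-1β, with a median of 0.23. The immunoproteasome subunit gene Psmb10 had 33.0, 21.1 and 16.6 FPKM with TNF, 12.2, 12.1 and 7.28 FPKM with IL-1β and 9.96, 6.43 and 8.63 FPKM without cytokine (1.07, SE 0.20, adjusted p = 0.0003), and the peptide editor gene Tapbpl had 9.84, 8.39 and 8.36 FPKM with TNF and 4.21, 3.58 and 3.90 FPKM with IL-1β (1.01, SE 0.17, adjusted p = 3.2e-05). The proteasome activator gene Psme2 (0.81, SE 0.18, adjusted p = 0.0032) and the peptide transporter genes Tap1 (0.78, SE 0.22, adjusted p = 0.03) and Tap2 (0.46, adjusted p = 0.042) followed. For Psmb10, Tapbpl, Psme2 and Tap1 the TNF change from unstimulated cells was called and the IL-1β change was not (0.29, 0.36, 0.28 and -0.05). B2m, the invariant light chain, stood at 0.16 and was not called. Psme2 lost its call without IL-1β replicate 3 (0.60), and Tap1 without TNF replicate 1 (0.63), IL-1β replicate 2 (0.67) or IL-1β replicate 3 (0.78). Tap2 was called without TNF replicate 3 or IL-1β replicate 1 but not without the others (0.34 to 0.49), nor with a pseudocount of 0.1 (0.49, adjusted p = 0.055), and Psmb10, Psme2, Tap1 and Tap2 were not called in the fit of the 6 libraries.

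**Figure D3:**
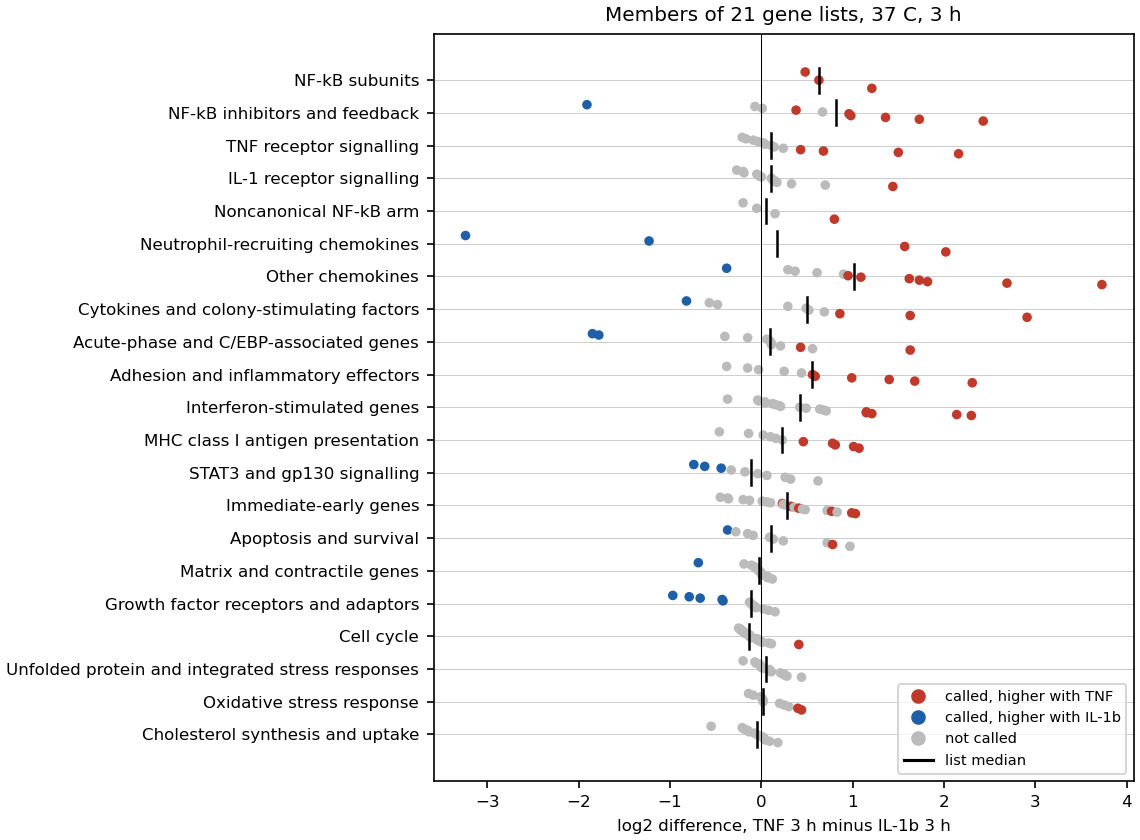
Difference in log2(FPKM + 1), TNF minus IL-1β at 3 h and 37 °C (horizontal axis), for the measured members of 21 gene lists, 1 point per gene and 1 row per list. Red members were called higher with TNF, blue ones higher with IL-1β and grey ones were not called; black bars are list medians, from -0.13 (cell cycle) to 1.02 (other chemokines), where the median over all genes is -0.04.

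Calls ran in both directions among acute-phase genes. Of 13 acute-phase and C/EBP-associated genes 2 were higher with TNF and 2 with IL-1β, with a median of 0.10. Cebpd, which encodes C/EBPδ, a transcription factor of the acute-phase response, had 13.8, 11.3 and 12.4 FPKM with TNF, 48.0, 43.5 and 51.5 FPKM with IL-1β and 19.4, 14.9 and 17.1 FPKM without cytokine (log2 difference -1.85, SE 0.12, adjusted p = 1.1e-15). It rose with IL-1β (log2 change 1.43, adjusted p = 1.5e-12) and fell with TNF (log2 change -0.42, adjusted p = 0.012) relative to unstimulated cells. Lcn2, which encodes the siderophore-binding protein lipocalin 2, had 3.94, 4.27 and 2.59 FPKM with TNF and 19.5, 10.8 and 14.7 FPKM with IL-1β (-1.78, SE 0.33, adjusted p = 0.00017), and its call was lost with a pseudocount of 0.1 (-2.02, adjusted p = 0.11). On the TNF side, the complement gene Cfb had 10.4, 5.92 and 6.38 FPKM with TNF and 3.58, 1.34 and 0.82 FPKM with IL-1β (1.63, SE 0.31, adjusted p = 0.00029), and the pentraxin gene Ptx3 had 344, 405 and 317 FPKM with TNF and 248, 279 and 261 FPKM with IL-1β (0.43, SE 0.12, adjusted p = 0.018). The libraries were separate for all 4 genes, and Cebpb (-0.15), C3 (0.21) and Hp (0.11) were not called. Outside the list the serpin gene Serpina3f was among the 12 largest, with 0.69, 0.29 and 0.16 FPKM with TNF and 4.56, 1.44 and 1.64 FPKM with IL-1β (-1.27, SE 0.18, adjusted p = 1.2e-06), in a family of close relatives whose reads are hard to divide. Ptx3 was not called without TNF replicate 2 (0.33), IL-1β replicate 1 (0.39) or IL-1β replicate 3 (0.43), and Cfb, Ptx3 and Serpina3f not in the fit of the 6 libraries.

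The STAT3 and gp130 list had 0 of 10 genes higher with TNF and 3 with IL-1β, with a median of -0.11. Il6ra, the IL-6 receptor, had 2.57, 1.82 and 2.95 FPKM with TNF and 5.25, 4.71 and 4.22 FPKM with IL-1β (-0.74, SE 0.14, adjusted p = 0.0002). Socs3, a feedback inhibitor of IL-6 signalling, had 20.6, 14.5 and 13.2 FPKM with TNF, 25.7, 25.1 and 23.6 FPKM with IL-1β and 24.0, 22.1 and 22.2 FPKM without cytokine (-0.62, SE 0.16, adjusted p = 0.01), having fallen with TNF (-0.50, adjusted p = 0.023) where the IL-1β change was not called (0.12). Il4ra, the IL-4 receptor, had 57.9, 50.5 and 53.4 FPKM with TNF and 82.0, 69.2 and 69.0 FPKM with IL-1β (-0.44, SE 0.09, adjusted p = 0.0012). The libraries were separate for all 3 genes, but their sizes are below 2-fold. Stat3 itself stood at -0.18 and Il6st, which encodes gp130, at 0.06, neither called. Socs3 lost its call without TNF replicate 2 (-0.56) or TNF replicate 3 (-0.49), and none of the 3 was called in the fit of the 6 libraries.

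A further set had fallen with TNF relative to unstimulated cells and stood higher with IL-1β. Id2 and Id3 encode inhibitors of basic helix-loop-helix transcription factors. Id3 had 86.5, 85.0 and 77.7 FPKM with TNF, 196, 181 and 174 FPKM with IL-1β and 262, 244 and 221 FPKM without cytokine (-1.14, SE 0.09, adjusted p = 3e-13), and Id2 had 21.7, 19.4 and 18.8 FPKM with TNF, 46.8, 47.5 and 48.1 FPKM with IL-1β and 67.5, 61.4 and 55.6 FPKM without cytokine (-1.21, SE 0.12, adjusted p = 2.8e-10). The helix-loop-helix factor gene Atoh8 had 20.5, 23.6 and 21.3 FPKM with TNF, 62.6, 54.5 and 56.5 FPKM with IL-1β and 76.1, 81.4 and 70.1 FPKM without cytokine (-1.37, SE 0.09, adjusted p = 1.3e-15). All TNF libraries lay below all IL-1β libraries, which in turn lay below the unstimulated ones for all 3. The α1D-adrenergic receptor gene Adra1d had 4.01, 6.89 and 4.34 FPKM with TNF, 11.8, 16.3 and 13.6 FPKM with IL-1β and 28.2, 29.2 and 22.8 FPKM without cytokine (-1.31, SE 0.16, adjusted p = 3.8e-08), in the same order. Against unstimulated cells TNF changed Id3 by -1.53, Id2 by -1.57, Atoh8 by -1.75 and Adra1d by -2.21, all called. IL-1β changed them by -0.39, -0.36, -0.38 and -0.90, called for all but Id2 (adjusted p = 0.083). Adra1d was not called in the fit of the 6 libraries (adjusted p = 0.058).

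Of 13 measured growth factor receptors and adaptors 0 were higher with TNF and 5 with IL-1β, with a median of -0.11. The insulin receptor substrates were Irs2 (4.93, 3.45 and 4.07 FPKM with TNF, 10.6, 8.21 and 8.49 FPKM with IL-1β, 16.5, 15.9 and 17.2 FPKM without cytokine; -0.97, SE 0.11, adjusted p = 4.1e-09) and Irs1 (7.65, 5.79 and 4.36 FPKM with TNF, 13.2, 10.9 and 8.58 FPKM with IL-1β, 22.6, 19.0 and 17.8 FPKM without cytokine; -0.79, SE 0.12, adjusted p = 1e-05). Pdgfrb, the receptor through which PDGF drives fibroblast growth, had 49.5, 42.7 and 36.3 FPKM with TNF, 77.8, 69.3 and 59.4 FPKM with IL-1β and 101, 93.4 and 76.7 FPKM without cytokine (-0.67, SE 0.13, adjusted p = 0.0002). The TGF-β receptor genes Tgfbr1 (-0.43, SE 0.10, adjusted p = 0.0068) and Tgfbr3 (-0.42) were the other calls, and Pdgfra (-0.10), Fgfr1 (-0.13) and Tgfbr2 (0.02) were not called. Of 14 matrix and contractile genes 1 was called, the matrix protease Adamts1 (19.5, 18.6 and 22.8 FPKM with TNF, 29.0, 34.1 and 37.4 FPKM with IL-1β, 89.9, 83.8 and 90.5 FPKM without cytokine; -0.69, SE 0.13, adjusted p = 0.00015), with a list median of -0.03. Both Irs genes and Adamts1 were lowest with TNF and highest without cytokine, with no overlap among the 3 groups. Tgfbr3 was not called without TNF replicate 3 (-0.36) or IL-1β replicate 1 (-0.31), and none of these 6 genes was called in the fit of the 6 libraries.

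Of the remaining lists, immediate-early genes had 6 of 22 higher with TNF (8 after rescaling) and 0 with IL-1β, with a median of 0.29. Atf3, a stress-induced repressor, had 13.0, 11.6 and 12.6 FPKM with TNF and 4.86, 6.49 and 5.45 FPKM with IL-1β (1.03, SE 0.20, adjusted p = 0.00046), Gadd45b, a stress sensor that NF-κB induces, had 82.1, 90.8 and 91.4 FPKM with TNF and 44.8, 42.0 and 44.6 FPKM with IL-1β (0.99, SE 0.09, adjusted p = 1.1e-11), and Jun, a subunit of AP-1, had 42.9, 39.0 and 41.1 FPKM with TNF and 25.7, 19.2 and 26.8 FPKM with IL-1β (0.77, SE 0.11, adjusted p = 2.3e-06). Their TNF libraries all lay above their IL-1β libraries. Apoptosis and survival genes gave 1 of 10 in each direction, with Bid, a pro-apoptotic BH3 gene, higher with TNF (83.4, 86.6 and 78.6 FPKM with TNF, 48.3, 49.4 and 45.9 FPKM with IL-1β; 0.78, SE 0.08, adjusted p = 1.7e-10) and Bcl2l1, which encodes the survival factor BCL-XL, higher with IL-1β (-0.37, SE 0.11, adjusted p = 0.035) with overlapping libraries. Oxidative stress genes had 2 of 11 higher with TNF, the regulator Nfe2l2 (0.40, SE 0.08, adjusted p = 0.0013) and the autophagy receptor Sqstm1 (0.44, SE 0.13, adjusted p = 0.03). Cell cycle genes had 1 of 23, Ccnd1 (0.41, SE 0.09, adjusted p = 0.0025), with a median of -0.13. None of 16 unfolded protein and integrated stress response genes (largest Ppp1r15a, 0.44, SE 0.19, adjusted p = 0.25) and none of 13 cholesterol genes (largest Dhcr7, -0.55, SE 0.19, adjusted p = 0.1) was called, with medians of 0.06 and -0.05. Over all genes 4.14% were called, so the counts of these lists and of the cell cycle list lie near that share. They say little about the lists themselves.

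Calls in these lists were less firm near the threshold. Dusp5, a MAP kinase phosphatase gene (0.41, SE 0.12, adjusted p = 0.049), was not called without TNF replicate 1 (0.35), TNF replicate 3 (0.31), IL-1β replicate 2 (0.33) or IL-1β replicate 3 (0.42), nor without the variance trend (adjusted p = 0.058). Bcl2l1 was not called without TNF replicate 2 (-0.31), TNF replicate 3 (-0.33), IL-1β replicate 1 (-0.29) or IL-1β replicate 3 (-0.34), nor after rescaling (-0.33). Sqstm1 was not called without TNF replicate 1 (0.32), TNF replicate 2 (0.45), IL-1β replicate 2 (0.42) or IL-1β replicate 3 (0.35), and Dhcr7 was called without IL-1β replicate 3 (-0.77). Of the other immediate-early calls, Fosl2 (0.23) was lost in 5 of the 6 fits without a library (0.19 to 0.25) and Ier5 (0.33) in 4 (0.26 to 0.35). In the fit of the 6 libraries Fosl2, Ier5, Jun, Dusp5, Bcl2l1, Ccnd1, Sqstm1 and Nfe2l2 were not called.

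At 1 h fewer genes were called. The same comparison in the 1 h libraries, which are other libraries, called 15 genes (0.148%), 10 higher with TNF (0.0988%) and 5 with IL-1β (0.0494%). The 5 were Zc3h12a, Cxcl1, Cebpd, Cxcl5 and Id2, and 3 were called without 1 h TNF replicate 3 or 1 h IL-1β replicate 2. All 5 were also called at 3 h, which is 3.12% of the 160. The 10 were Tnfaip3, Csf2, Vcam1, Tnfaip2, Zfp36, Tlr2, Gdf15, Ccl20 and 2 unnamed models, and 9 of them, all but Ccl20, were also called at 3 h, or 3.47% of the 259. Over the genes called at 3 h the median difference at 1 h was 0.16 for the 259 and -0.06 for the 160, against 0.69 and -0.55 at 3 h. The genes were picked at 3 h, so their medians there lean outward and the gap between the times is partly set by that choice. At 1 h 83.8% and 76.2% had the same sign as at 3 h.

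Zc3h12a and Cebpd were split as early as 1 h. Zc3h12a had 11.8, 13.3 and 10.1 FPKM with TNF and 41.9, 37.7 and 33.9 FPKM with IL-1β at 1 h (log2 difference -1.61, SE 0.13, adjusted p = 2.2e-12), and Cebpd had 15.7, 14.0 and 17.4 FPKM with TNF and 46.0, 37.5 and 37.4 FPKM with IL-1β (log2 difference -1.30, SE 0.12, adjusted p = 2.6e-10). Cxcl1 had 196, 207 and 175 FPKM with TNF and 542, 526 and 558 FPKM with IL-1β (log2 difference -1.49, SE 0.24, adjusted p = 0.00027). All 3 genes were separate between the cytokines at 1 h, which follows largely from their being called on these same libraries. A test of the change in the difference between the times, in the same fit, did not call any of them (3 h minus 1 h: -0.30, -0.55 and 0.26, with adjusted p = 0.80, 0.15 and 0.98).

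That test of 3 h minus 1 h called 88 genes (0.869%), 61 with a difference further to the TNF side at 3 h (0.603%) and 27 further to the IL-1β side (0.267%), and the 61 became 40 without 3 h TNF replicate 1. Ccl5 had 2.23, 1.24 and 0.38 FPKM with TNF and 1.47, 0.45 and 0 FPKM with IL-1β at 1 h, overlapping groups whose difference was not called (0.49), and the change by 3 h was called (change in the difference 3.24, SE 0.52, adjusted p = 0.00014). Irf1 had 131, 109.5 and 103 FPKM with TNF and 79.3, 65.7 and 63.3 FPKM with IL-1β at 1 h, and then declined further with IL-1β than with TNF (change in the difference 1.58, SE 0.25, adjusted p = 0.00014). Tnfaip3 had 201, 202 and 214 FPKM with TNF and 96.2, 83.6 and 109 FPKM with IL-1β (change in the difference 1.34, SE 0.15, adjusted p = 2.1e-07), and Nfkbia had 462, 473 and 489.8 FPKM with TNF and 332, 293 and 384 FPKM with IL-1β (change in the difference 1.22, SE 0.18, adjusted p = 3.2e-05). These 3 were higher at 1 h than at 3 h with either cytokine, and the cytokines drew apart by 3 h. Icam1 moved the other way in time, with 45.7, 40.3 and 27.0 FPKM with TNF and 28.3, 18.7 and 15.0 FPKM with IL-1β at 1 h (change in the difference 1.46, SE 0.29, adjusted p = 0.0024). Further to the IL-1β side were Cxcl5 (46.6, 51.6 and 36.1 FPKM with TNF, 113, 113 and 85.7 FPKM with IL-1β at 1 h; change in the difference -2.04, SE 0.32, adjusted p = 0.00014) and Adra1d (16.8, 20.8 and 19.9 FPKM with TNF, 18.6, 23.6 and 18.3 FPKM with IL-1β at 1 h; change in the difference -1.24, SE 0.22, adjusted p = 0.00066). In a fit of the compared libraries alone the change was not called for Ccl5 (adjusted p = 0.069), Cxcl10 (0.058) or Adra1d (0.097), and with a pseudocount of 0.1 not for Ccl5 (adjusted p = 0.68) or Cxcl10 (0.055).

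**Figure D4:**
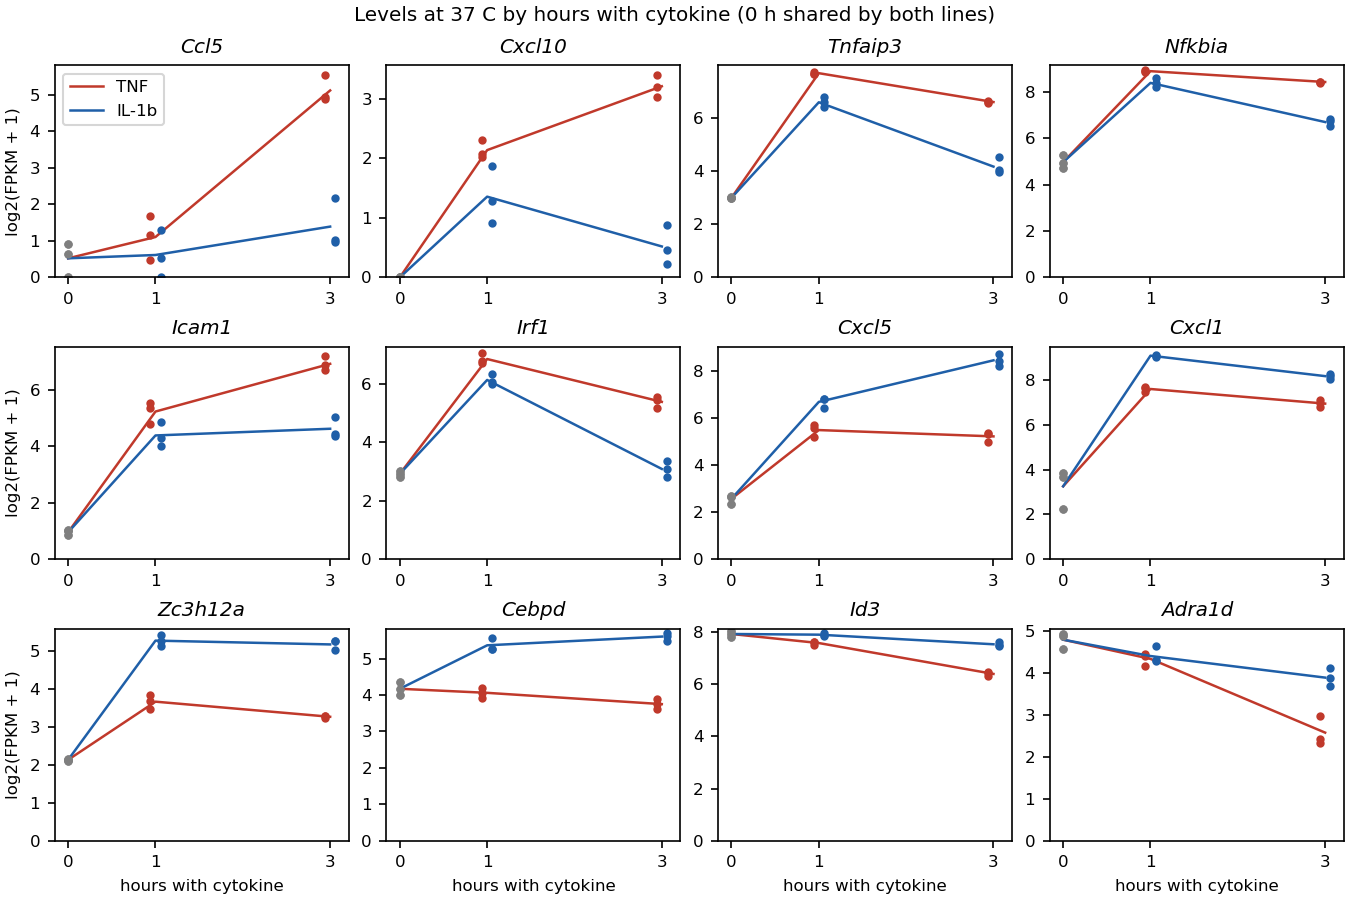
Level as log2(FPKM + 1) at 0, 1 and 3 h of cytokine at 37 °C for 12 genes, with 1 point per library, lines through the group means, TNF in red and IL-1β in blue, and the 3 unstimulated libraries in grey at 0 h. Tnfaip3, Nfkbia and Irf1 peak at 1 h with both cytokines and fall further by 3 h with IL-1β, whereas Zc3h12a and Cebpd are apart at 1 h already; groups at 0, 1 and 3 h had spent 2, 3 and 5 h at 37 °C.

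The comparison was repeated in separate libraries at 34 and 40 °C, also at 3 h. At 34 °C 245 genes were called (2.42%), 168 higher with TNF (1.66%) and 77 with IL-1β (0.761%). At 40 °C 563 were called (5.56%), 313 higher with TNF (3.09%) and 250 with IL-1β (2.47%). After rescaling the splits were 192 and 55 at 34 °C and 359 and 218 at 40 °C. The 77 became 49 without 34 °C TNF replicate 1 and 47 without 34 °C TNF replicate 3, and the 250 became 152 without 40 °C TNF replicate 1 and 163 without 40 °C IL-1β replicate 3. Of the 259 genes higher with TNF at 37 °C, 149 (57.5%, and 88.7% of the 168) were called the same way at 34 °C and 200 (77.2%, and 63.9% of the 313) at 40 °C. For the 160 higher with IL-1β these numbers were 49 (30.6%, and 63.6% of the 77) and 99 (61.9%, and 39.6% of the 250). No gene was called in opposite directions, and 170 genes were called the same way at all 3 temperatures, 130 higher with TNF and 40 with IL-1β. Calls at the threshold need not overlap even where differences are alike, and the difference of 2 temperatures was tested itself.

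By that test limma called 0 genes for 37 °C minus 34 °C (342 genes at an unadjusted p under 0.05, smallest adjusted p 0.98) and 0 for 37 °C minus 40 °C (347 genes, smallest adjusted p 0.18). Both counts are below the share of 0.05 of the 10122 genes that such a p gives where nothing differs. This does not show that the temperatures are alike. Ccl5 differed by 3.86 at 34 °C and 3.36 at 40 °C, Tnfaip3 by 2.34 and 2.21, Cxcl5 by -2.70 and -3.36, Cebpd by -2.18 and -1.95, and Id3 by -1.36 and -1.01. Gbp2 was 1.95 at 34 °C and 1.21 at 40 °C, and Adra1d -0.89 and -0.77. Some genes passed the single-temperature test at 37 °C but not at both others, such as Rpusd3 (-0.58 and -0.69, neither called), Tap1 (0.19 and 0.47, neither called) and Rel (0.21 at 34 °C, not called, and 0.87 at 40 °C, called). For none of them was the difference between temperatures called. For 37 °C minus 40 °C, Dusp5 was called with a replicate block (-0.80) and, beside 1 unnamed model, without 40 °C TNF replicate 2 (-0.92), and another unnamed model without 40 °C IL-1β replicate 2 (-1.16).

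**Figure D5:**
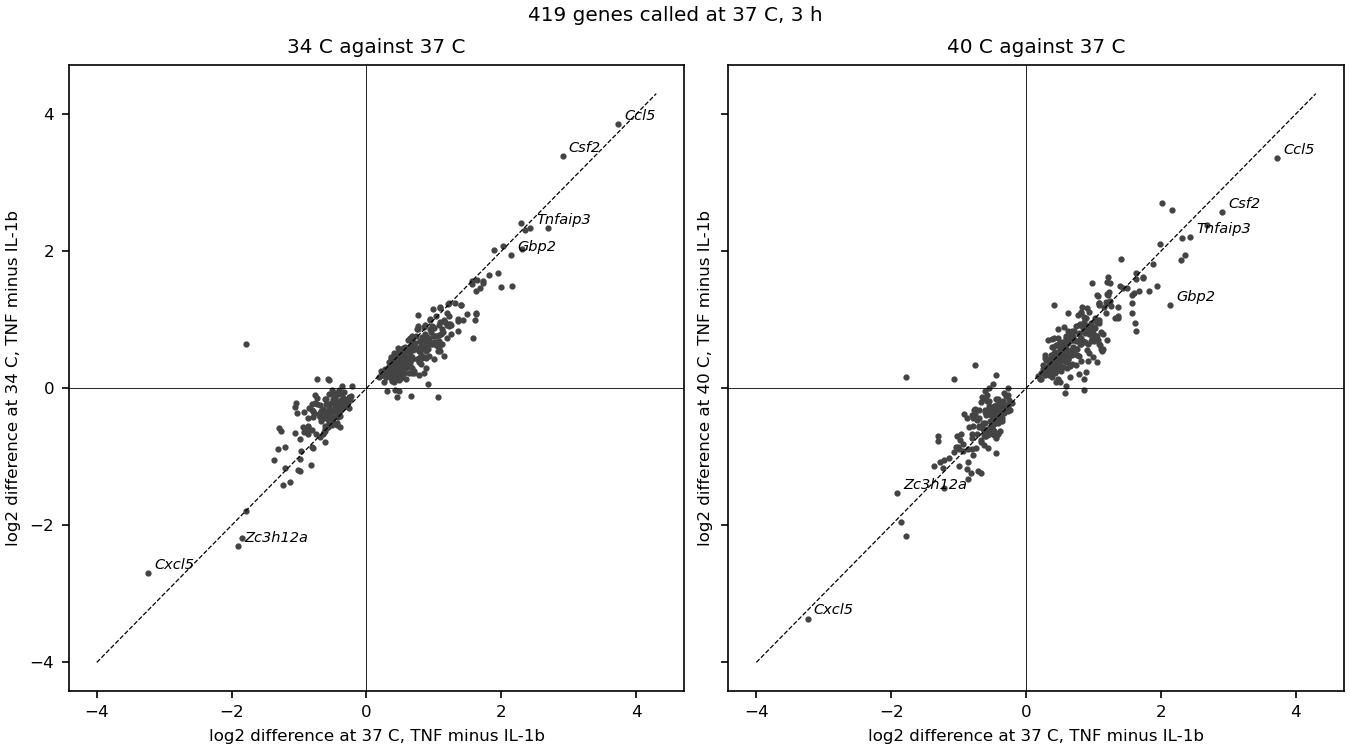
Difference in log2(FPKM + 1), TNF minus IL-1β at 3 h, at 34 °C (left panel) and 40 °C (right panel) on the vertical axes against 37 °C on the horizontal axes, for the 419 genes called at 37 °C, 1 point per gene, with the line of equality dashed. The genes were picked at 37 °C, so their values there lean outward; at 34 °C 97.7% of the genes higher with TNF and 96.2% of those higher with IL-1β kept their sign, and at 40 °C 99.2% and 95.6%.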

How the data were processed

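The authors deposited 1 table of FPKM values, 10122 genes by 60 libraries, all of whose columns were mapped to samples. The submitters' processing notes list, without role or order, edgeR, RSEM 1.3.3, STAR 2.7.11b and the assembly GRCm39. All 10122 gene identifiers are those of GENCODE M21, and promoters come from RefSeq on GRCm38.p6, so no coordinate of the table is given. Every gene reaches 1 FPKM in at least 4 libraries, and 3.77% of values are 0. No read counts were used. Depth was estimated from low values of 1651 single-transcript genes. The depth of each library and a shared fragment length, 225 bases, were those that brought these values nearest to whole fragments. In the 6 libraries 86.4% of 1483 low values then lay within 0.15 of a whole fragment. By chance 30% would for a depth not fitted to them, so this is no independent check of the estimate.

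Values were analysed as log2(FPKM + 1) with limma 3.58.1 in R 4.3.3, 1 mean per group over 60 libraries, a variance trend (prior degrees of freedom 4.37, residual 40), two-sided tests and Benjamini-Hochberg adjustment over 10122 genes. A minimum of 1 FPKM in 3 libraries removed 0 genes. The fit was tested on simulated data. Figures used matplotlib 3.10.9. Named genes are the 12 largest differences in each direction with separate replicates, up to 4 called members of each list, all members of the signalling, NF-κB and chemokine lists, Icam1, Il6, and the 2 largest changes of each sign in each test of a difference. Other list members, 15 genes called at 1 h and those under other observations were named after their values were seen. The members and the 21 lists (255 of 375 genes measured) were chosen with earlier results of these data known. Alternatives were a pseudocount of 0.1, the compared libraries alone, a replicate block, rescaling, a filter on the compared libraries, no variance trend, and each replicate left out. Replicate numbers were taken from the labels. Genes not in the table are not analysed here.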

Additional observations from a re-analysis of the deposited data

Results flagged for a closer look

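For 4 named genes the difference between the cytokines at 3 h departed from that at 1 h, by limma's test of the change itself, among the largest such changes in each direction. Ccl5 moved by 3.24 to the TNF side (adjusted p = 0.00014), and its libraries overlapped at 1 h and were separate at 3 h. Cxcl10 moved by 1.91 to the TNF side (adjusted p = 0.00014), having stood at 3.97, 3.08 and 3.22 FPKM with TNF and 2.66, 0.89 and 1.43 FPKM with IL-1β at 1 h. Cxcl5 changed by -2.04 (adjusted p = 0.00014) and Adra1d by -1.24 (adjusted p = 0.00066), both to the IL-1β side. At 3 h all 3 TNF libraries lay on 1 side of all 3 IL-1β libraries for each of the 4 genes, as for 17.5% of all genes. All 4 are among the leading genes, which were picked where replicates do not overlap, so the separation is no further support. The 1 h cells had spent 3 h and the 3 h cells 5 h at 37 °C, with either cytokine.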

How the results depend on the processing

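The 419 calls became 399 with a pseudocount of 0.1, 439 after rescaling, 434 with a filter on the compared libraries, 415 without the variance trend and 330 to 364 with 1 library left out. Fits of the compared libraries alone, which have fewer degrees of freedom and their own estimate of the spread, gave 142 for this comparison and 72 with a replicate block added. They gave 787 of 1418 for TNF against unstimulated cells, 73 of 440 for IL-1β against unstimulated cells, 7 of 15 at 1 h, 98 of 245 at 34 °C, 268 of 563 at 40 °C and 26 of 88 for 3 h minus 1 h. Leaving out 1 library gave 1147 to 1273 for TNF and 298 to 374 for IL-1β against unstimulated cells, 11 to 19 at 1 h, 181 to 214 at 34 °C, 413 to 455 at 40 °C, 61 to 85 for 3 h minus 1 h, and 0 to 2 for 37 °C minus 40 °C, where the replicate block gave 1. Same-numbered replicates of TNF and IL-1β correlated at 0.05 to 0.06 in their deviations from the group mean. Differently numbered ones, at -0.03 to -0.02, are no separate comparison, because the deviations within a group cancel out. Over the 30 same-numbered pairs at 37 °C the range was -0.04 to 0.22, and 5 exceeded 0.1. A weak effect shared by equal numbers may thus be present, and the main fit leaves it out. A replicate block in the fit of all 60 libraries raised the count to 520 and kept all 419 calls. Of 75 named calls 29 held under every alternative, 31 were lost only in fits of the compared libraries, 12 without some library, and 0 reversed. With a replicate block added to the 6 libraries, 39 of the 75 were not called. Among these were Traf1, Slc2a6, Lcn2, Cxcl1, Ptch1, Lif, Zfp36, Atf3, Ptges and Tapbpl, which the fit without a block called. Gbp2, Tnip1, Adra1d, Pdgfrb, Cx3cl1 and Sqstm1 were called with the block and not without it. Among the genes picked by hand below, Trex1, Irf5, Tlr2, Nod2, Smad6, Smad9, Fgf2, Fgf7 and Vdr lost their calls in the blocked fit. At about 6.38 fragments per FPKM and kilobase of effective length, genes of a few FPKM are limited by depth, and 3 replicates from 1 line limit the rest.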

Other observations

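The genes below lie outside the lists and were picked by hand after their values were seen, so they stand for no gene group. Higher with TNF were Il15ra, which presents IL-15 (50.8, 49.5 and 40.5 FPKM with TNF, 13.7, 15.5 and 14.9 FPKM with IL-1β; 1.61, SE 0.19, adjusted p = 1.8e-08), the DNA exonuclease gene Trex1 (32.4, 29.4 and 32.1 FPKM with TNF, 14.0, 12.0 and 8.20 FPKM with IL-1β; 1.41, SE 0.19, adjusted p = 4e-07) and the transcription factor gene Irf5 (16.3, 21.5 and 21.7 FPKM with TNF, 7.74, 7.36 and 9.79 FPKM with IL-1β; 1.16, SE 0.20, adjusted p = 6.1e-05). The receptor genes Tlr2 (18.2, 16.6 and 15.4 FPKM with TNF, 7.69, 4.97 and 5.83 FPKM with IL-1β; 1.32, SE 0.15, adjusted p = 1e-08) and Nod2 (2.04, 2.27 and 1.55 FPKM with TNF, 0.33, 0.25 and 0.29 FPKM with IL-1β; 1.19, SE 0.14, adjusted p = 2.5e-08), which sense bacterial products, went the same way. The libraries of the groups did not overlap for these 5, and TNF raised each from unstimulated cells (1.96, 1.96, 2.08, 3.10 and 1.49).

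Higher with IL-1β, and also chosen after their values were seen, were Id1, a relative of Id2 and Id3 (99.2, 104 and 98.6 FPKM with TNF, 200.4, 212 and 192 FPKM with IL-1β, 223, 235 and 202 FPKM without cytokine; -0.99, SE 0.10, adjusted p = 9.1e-11), and the SMAD genes Smad6 (7.69, 7.72 and 6.78 FPKM with TNF, 14.2, 14.2 and 12.0 FPKM with IL-1β, 28.3, 28.9 and 22.1 FPKM without cytokine; -0.79, SE 0.17, adjusted p = 0.0016) and Smad9 (1.43, 1.98 and 1.76 FPKM with TNF, 3.91, 4.84 and 5.28 FPKM with IL-1β, 6.56, 8.41 and 6.52 FPKM without cytokine; -1.06, SE 0.13, adjusted p = 4.1e-08), whose proteins act in BMP signalling. All 3 fell with TNF relative to unstimulated cells. Of growth factor genes, Fgf2 had 7.48, 6.44 and 6.57 FPKM with TNF and 15.7, 16.6 and 12.9 FPKM with IL-1β (-1.03, SE 0.15, adjusted p = 1.7e-06), and Fgf7, which acts on epithelium, had 42.3, 49.2 and 42.3 FPKM with TNF and 70.4, 65.4 and 71.2 FPKM with IL-1β (-0.62, SE 0.12, adjusted p = 0.00031). The vitamin D receptor gene Vdr had 10.8, 12.1 and 13.9 FPKM with TNF and 20.9, 22.5 and 22.5 FPKM with IL-1β (-0.80, SE 0.11, adjusted p = 1.8e-06). No library of one group reached the other for these 3 genes.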
